A study of Mus musculus with 21 samples.

Results

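The ventral pons of mice 14 days after the facial nerve was cut was compared with the ventral pons of unoperated mice. The comparison rests on 6 of 21 libraries, the 3 labelled Day 14 Lesion and the 3 labelled Day 0 Control, and the 3 contralateral libraries of day 14 served to separate what was specific to the lesion from what was found on both sides. All mice were C57BL/6 and carried CX3CR1GFP/wt, a line in which 1 copy of the microglial receptor gene Cx3cr1 is replaced by green fluorescent protein, so the controls carried it too. The right nerve was cut at the stylomastoid foramen at 8 weeks of age. The lesion group was the right pons at 10 weeks, the contralateral group was the left pons at 10 weeks, and the day 0 group was the left pons of unoperated mice at 8 weeks. The tissue block held the facial nucleus and parts of the neighbouring reticular and trigeminal nuclei, so motor neurons were a part of it. Operation, side, age and the lane number in the column headers (1 for day 0, 2 for day 14) differ together between the lesion and day 0 groups and cannot be told apart. The contralateral group shares age and lane number with the lesion group but not the side. The labels give the libraries as separate samples without saying that they came from separate animals, so p-values measure the spread between these samples.

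Facial motor neurons send their axons out of the brainstem and use acetylcholine to drive the muscles of the face. When the axon is cut outside the brain, the cell body switches from transmission to regrowth: transcription factors such as ATF3 and Jun, growth-associated proteins and neuropeptides are induced, and transmitter enzymes decline. Nearby microglia, the resident macrophages of the brain, gather around the injured cell bodies. AP-1 is the dimeric factor formed by Jun, Fos and ATF family proteins.

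Promoters are shown for some of the 36 genes that were called higher in the lesion libraries than in both control groups and hold the AP-1 motif TGANTCA. S100a11, Anxa2, Trem2 and Cst7 were added by name, and Serpinb2, which also holds the motif, is not shown. Each window has 300 bases, taken from RefSeq on GRCm38.p6, and the capitals mark the motif, searched on both strands:

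Sprr1a (chr3:92485832-92486131, minus strand): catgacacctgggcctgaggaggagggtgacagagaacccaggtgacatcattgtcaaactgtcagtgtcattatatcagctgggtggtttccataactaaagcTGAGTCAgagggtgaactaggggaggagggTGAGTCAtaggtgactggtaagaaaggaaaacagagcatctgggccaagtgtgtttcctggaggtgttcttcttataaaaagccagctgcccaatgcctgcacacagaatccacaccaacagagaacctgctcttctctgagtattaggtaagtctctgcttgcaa
Anxa10 (chr8:62123144-62123443, minus strand): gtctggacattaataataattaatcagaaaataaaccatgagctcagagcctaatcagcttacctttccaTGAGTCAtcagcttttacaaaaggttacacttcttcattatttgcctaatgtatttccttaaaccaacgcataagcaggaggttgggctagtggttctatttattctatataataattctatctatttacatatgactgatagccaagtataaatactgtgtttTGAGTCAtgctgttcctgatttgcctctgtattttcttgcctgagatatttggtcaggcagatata
S100a11 (chr3:93520246-93520545, plus strand): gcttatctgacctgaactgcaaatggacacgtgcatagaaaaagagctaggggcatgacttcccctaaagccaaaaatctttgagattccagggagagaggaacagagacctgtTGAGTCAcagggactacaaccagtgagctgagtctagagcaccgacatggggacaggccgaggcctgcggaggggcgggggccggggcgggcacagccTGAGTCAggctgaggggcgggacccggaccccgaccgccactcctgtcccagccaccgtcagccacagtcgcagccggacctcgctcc
Anxa2 (chr9:69453433-69453732, plus strand): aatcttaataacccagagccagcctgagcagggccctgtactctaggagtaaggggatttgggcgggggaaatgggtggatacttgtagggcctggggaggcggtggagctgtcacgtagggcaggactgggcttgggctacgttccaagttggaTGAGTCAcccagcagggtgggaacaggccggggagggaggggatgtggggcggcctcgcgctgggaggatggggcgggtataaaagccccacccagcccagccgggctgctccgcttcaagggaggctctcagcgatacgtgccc
Trem2 (chr17:48346151-48346450, plus strand): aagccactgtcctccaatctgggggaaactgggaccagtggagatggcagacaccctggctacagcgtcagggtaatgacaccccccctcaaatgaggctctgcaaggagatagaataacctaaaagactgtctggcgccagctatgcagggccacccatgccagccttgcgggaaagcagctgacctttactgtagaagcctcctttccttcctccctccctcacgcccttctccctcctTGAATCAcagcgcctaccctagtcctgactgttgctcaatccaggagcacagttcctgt
Cst7 (chr2:150570165-150570464, plus strand): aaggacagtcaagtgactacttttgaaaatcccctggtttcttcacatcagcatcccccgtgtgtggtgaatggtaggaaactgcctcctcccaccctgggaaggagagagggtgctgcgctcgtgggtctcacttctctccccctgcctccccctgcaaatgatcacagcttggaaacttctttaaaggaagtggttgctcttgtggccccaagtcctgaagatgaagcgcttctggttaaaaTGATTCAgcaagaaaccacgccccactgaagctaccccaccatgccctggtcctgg

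Sprr1a, which encodes a small proline-rich protein of growing axons, had matches starting 146 and 116 bases before the transcription start. Anxa10, an annexin gene, had matches 180 and 16 bases before it, and S100a11 had them 136 and 38 bases before it. The calcium- and membrane-binding annexin gene Anxa2 had 1 match at 95 bases, the microglial receptor gene Trem2 had 1 at 9 bases and the cystatin gene Cst7 had 1 at 6 bases. No match was found in the windows of Atf3, Gal, Npy and Chat. The windows of Ankrd1, Cyp26a1, Ppef1, Uox, Il1f9 and Slfn9, all strongly higher in the lesion libraries, held none either. Grin3b, which was lower there, had 1 match at 124 bases. Of 335 promoters of lesion-specific higher genes (the class is defined with the counts below), which belong to 276 of 382 genes, 41 (12.2%) held the motif. The share was 8.33% of 84 promoters of lesion-specific lower genes, 4.84% of 1136 and 4.62% of 563 promoters of genes that were higher or lower on both sides, and 5.7% of the 17059 promoters of all genes tested. Over all 32851 promoters, with genes not tested included, it was 7.81%. The CRE motif TGACGTCA was in 0.896% of the promoters of lesion-specific higher genes, against 2.66% over all genes tested and 1.79% over all promoters. These shares are descriptions without a test, and a match in a window is not evidence of binding.

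Summed counts were 35874913 to 41448945 in the day 0 libraries, 19614538 to 26540472 in the lesion libraries and 19221145 to 21782564 in the contralateral ones. Levels are given as CPM, the count relative to the TMM-scaled library total. Mitochondrial transcripts made up 3.05% to 3.60% of counts at day 0, 4.48% and 4.40% in lesion replicates 1 and 3, and 2.81% in lesion replicate 2, which stood apart from the other 2. In a principal component analysis of the 9 libraries the first component (35.1% of the variance) placed day 0 at -26.41 to -20.59, the contralateral libraries at -0.01 to 2.73 and the lesion libraries at 19.41 to 22.13. The second component (23.9%) set the contralateral libraries, at 15.97 to 20.58, apart from day 0 (-18.88 to 2.557) and lesion (-21.89 to -2.136). In tissue blocks, fewer cells of a type and less RNA per cell cannot be told apart.

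Against day 0, 2181 genes rose and 1568 fell in the lesion pons, which is 16.8% of the 22294 genes tested (9.78% higher, 7.03% lower). The contralateral pons of day 14, the side of the uncut nerve, differed from the same day 0 libraries in 15.8% of genes (9.09% higher, 6.73% lower). Between the sides of day 14, 3.88% of genes differed (2.58% higher and 1.31% lower on the lesion side). Calls required an adjusted p under 0.05 in edgeR's quasi-likelihood test, and log2 differences are given with their standard error.

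Genes called in the same direction against day 0 and against the contralateral side are named lesion-specific here. There were 382 higher (1.71% of genes tested) and 102 lower (0.458%) ones. The median log2 change against day 0 was 0.77 for the higher genes and -0.41 for the lower ones, against -0.01 over all genes tested, and 39 of these 484 genes were also called between contralateral pons and day 0. Genes that were called in the same direction on both sides of day 14 and not between the sides numbered 1263 higher (5.67%) and 646 lower (2.9%). The contrasts share libraries, and the classes follow from the same calls. The count of lesion-specific lower genes depended on single libraries: it was 387 without lesion replicate 1 and 27 without lesion replicate 2, 44, 49 and 51 without contralateral replicates 1, 2 and 3, and 155 without day 0 replicate 2. The number of both-sides lower genes was 430 without contralateral replicate 3 and 393 without day 0 replicate 2.

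**Figure D1:**
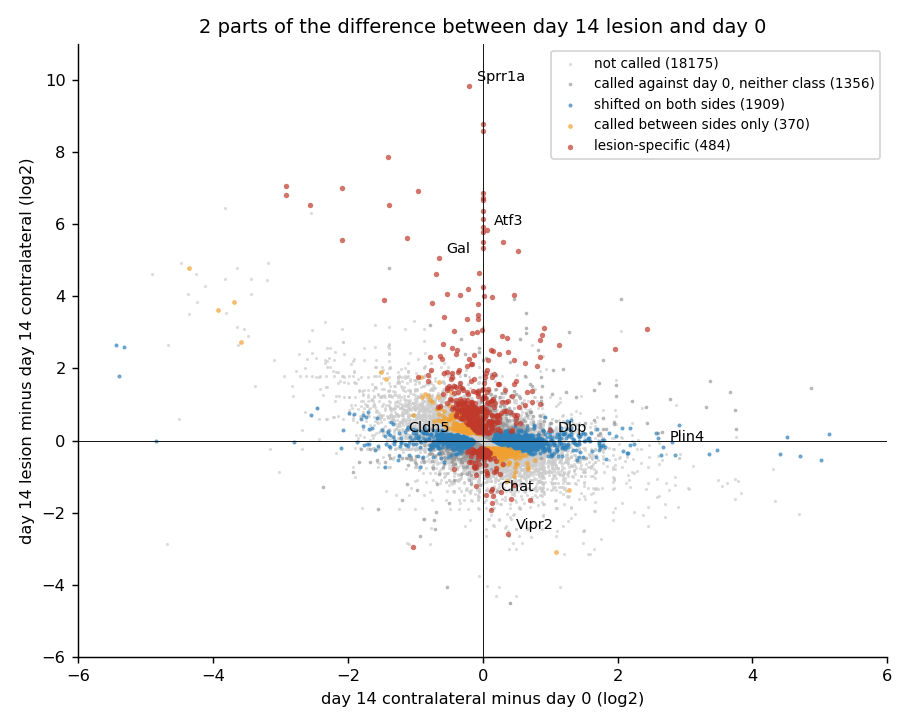
Each point is a gene, placed by its log2 difference between contralateral pons and day 0 (horizontal) and between lesion and contralateral pons (vertical), and coloured by class. The 484 lesion-specific genes lie away from the horizontal line, with Sprr1a at 9.83, and the 1909 genes shifted on both sides lie along it. The axes share the contralateral libraries, so the slope of the cloud is not a result.

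Genes of the axotomy response were the clearest lesion-specific group. Of 36 listed genes 31 rose against day 0 and none fell, and 27 were lesion-specific. The list median was 0.75 against -0.01 over all genes tested, of which 9.78% rose and 1.71% were lesion-specific and higher. Sprr1a had 0.248, 0.422 and 0.155 CPM in the day 0 libraries, 0.245, 0.208 and 0.274 CPM in the contralateral libraries, and 201, 223 and 254 CPM in the lesion libraries. All lesion libraries lay far above all controls, and the log2 difference was 9.63 ± 0.46 against day 0 (adjusted p = 2.42e-09) and 9.83 ± 0.52 against the contralateral side (adjusted p = 1.76e-08). Sprr1a lies on chromosome 3, 92483952 to 92485895 of GRCm38, on the minus strand.

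Atf3, the stress-induced transcription factor, had 0.994, 1.08 and 1.52 CPM at day 0, 1.27, 1.30 and 1.19 CPM contralaterally, and 62.4, 71.0 and 81.9 CPM on the lesion side. The groups did not overlap, and the log2 difference against day 0 was 5.90 ± 0.29 (adjusted p = 2.16e-09). Jun, its partner in AP-1, rose from 55.0, 54.1 and 56.4 CPM to 77.7, 81.0 and 79.5 CPM, a log2 change of 0.53 ± 0.09. Its exons overlap Junos on the other strand and whether strand was used in the counting is not given in the sources used here. Sox11, a transcription factor of immature neurons, rose from 4.47 to 5.29 CPM at day 0 to 15.4 to 17.3 CPM in the lesion libraries, 1.73 ± 0.13 on the log2 scale.

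The neuropeptide genes Gal and Npy rose. Gal, which encodes galanin, had 5.71, 15.4 and 9.98 CPM at day 0, 7.24, 5.71 and 6.94 CPM contralaterally, and 190, 238 and 236 CPM on the lesion side, a log2 difference of 4.40 ± 0.33 against day 0. Npy, the gene for neuropeptide Y, had 7.40, 16.1 and 5.08 CPM at day 0, 7.14, 3.95 and 6.53 CPM contralaterally, and 123, 155 and 156 CPM on the lesion side, a difference of 3.91 ± 0.41. Neither gene had a lesion library within the range of a control library. Gpr151, an orphan receptor gene, rose from 0.442, 0.0937 and 0.361 CPM to 15.2, 15.4 and 19.0 CPM, a difference of 5.81 ± 0.32.

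Other lesion-specific genes named for the size of their change had at most 1.06 CPM in each day 0 library. Anxa10 rose from 0.359, 0.281 and 0.309 CPM to 14.7, 18.4 and 18.8 CPM (5.76 ± 0.23), and Ppef1, a protein phosphatase gene, from 0.386 to 1.06 CPM to 12.5 to 13.6 CPM (4.12 ± 0.24). Cyp26a1, which encodes the retinoic acid-degrading enzyme, rose from at most 0.138 CPM to 2.48, 5.32 and 5.65 CPM. Sprr2j-ps, of the same small proline-rich family as Sprr1a, had no count in any day 0 or contralateral library and 2.33, 1.94 and 2.52 CPM in the lesion libraries. With 3 counts per group taken as the floor, it was at least 88.4-fold higher than at day 0 and at least 46.3-fold higher than contralaterally. Serpinb2 (5.15 ± 0.47), Ankrd1 (4.28 ± 0.40), Uox (4.03 ± 0.32), Il1f9 (4.03 ± 0.42) and Slfn9 (3.20 ± 0.33) rose from levels below 0.4 CPM, and Serpinb2 shares exon bases with Serpinb10 on its strand.

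Genes of the integrin, annexin and S100 families followed, with 9 of 25 lesion-specific and higher, against 1.71% of all genes tested. Itga7, the laminin-binding integrin subunit, rose from 29.8, 26.8 and 29.8 CPM at day 0 to 94.4, 102 and 111 CPM, with 27.0, 21.9 and 24.6 CPM contralaterally (1.83 ± 0.11 against day 0). S100a11 rose from 2.68, 3.70 and 2.63 CPM to 7.59, 9.34 and 10.0 CPM and Anxa2 from 53.5, 66.1 and 56.8 CPM to 128, 153 and 154 CPM. Itgb1, the integrin partner of Itga7, rose by a smaller amount, 0.39 ± 0.06. Exons of Itga7 and Anxa2 overlap genes on the other strand. Of the list of cell death and DNA damage, 5 of 24 were lesion-specific and higher (3 without lesion replicate 3), among them the BH3-only gene Pmaip1 (2.77 ± 0.19) and the stress gene Gadd45a (1.25 ± 0.12).

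**Figure D2:**
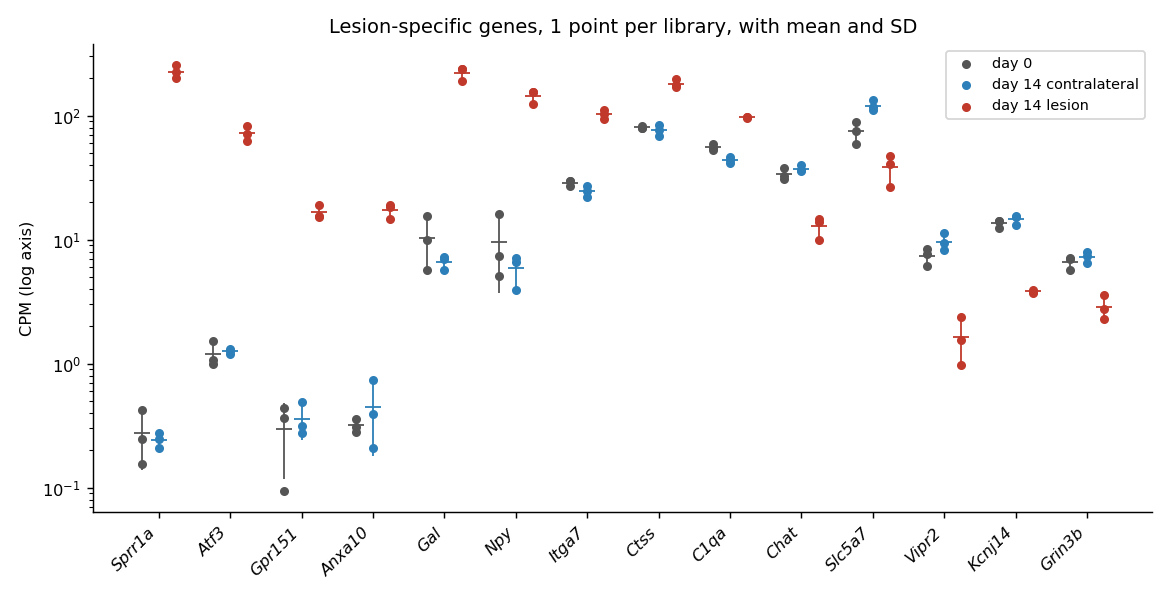
CPM on a log axis for 14 lesion-specific genes, 1 point per library, with the mean and SD of the 3 libraries of each group; an SD bar that would reach 0 or below is drawn shorter. Lesion libraries of Sprr1a reach 201 to 254 CPM against at most 0.422 CPM in the controls, and those of Chat lie at 9.94 to 14.7 CPM against at least 30.7 CPM.

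Cholinergic genes fell on the lesion side. Of 24 genes of cholinergic and motor neuron identity 8 fell and 1 rose against day 0, and 7 were lesion-specific and lower (range 5 to 8 when each library was left out). Over all genes tested 7.03% fell and 9.78% rose against day 0, and 0.458% were lesion-specific and lower. Chat, the enzyme of acetylcholine synthesis, had 37.7, 30.7 and 32.3 CPM at day 0, 39.8, 35.5 and 36.5 CPM contralaterally, and 13.8, 9.94 and 14.7 CPM on the lesion side. No lesion library reached a control library, and the log2 difference was -1.39 ± 0.22 against day 0 (adjusted p = 0.000383). Slc18a3, the vesicular acetylcholine transporter gene that lies within the Chat locus on chromosome 14, fell from 53.9, 47.0 and 56.4 CPM to 30.0, 27.1 and 30.5 CPM. Its difference was -0.84 ± 0.19 against day 0 and -0.91 ± 0.19 against the contralateral side, and the latter was not called without lesion replicate 2 (adjusted p = 0.0997) or contralateral replicate 1 (0.069). Slc5a7, the choline transporter gene, had 88.5, 59.2 and 75.6 CPM at day 0, 133, 118 and 111 CPM contralaterally, and 47.4, 26.6 and 40.8 CPM on the lesion side, a difference of -0.97 ± 0.29 against day 0. That call was lost without lesion replicates 2 (adjusted p = 0.138) or 3 (0.0739) and without day 0 replicates 1 (0.117) or 3 (0.0798).

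Receptor and channel genes also fell. Vipr2, a receptor for vasoactive intestinal peptide, had 8.42, 6.11 and 7.69 CPM at day 0, 11.3, 8.20 and 9.36 CPM contralaterally and 2.38, 0.968 and 1.54 CPM on the lesion side. This was the largest named fall, -2.22 ± 0.25 against day 0 (adjusted p = 2.28e-06). The inward rectifier channel gene Kcnj14 had 14.1, 12.4 and 14.1 CPM at day 0, 15.6, 13.1 and 15.2 CPM contralaterally and 3.80, 3.95 and 3.69 CPM on the lesion side (-1.82 ± 0.19). Serotonin receptor gene Htr3a fell by 1.37 on the log2 scale, Vdr, the vitamin D receptor gene, by 1.47, and Grin3b, an NMDA receptor subunit gene whose exons overlap Tmem259 on the other strand, by 1.20. Chodl, a motor neuron gene, fell by 1.21. For Htr2a (-1.06 ± 0.23) and Gpr139 (-1.23 ± 0.19), the call against the contralateral side was lost without lesion replicate 2 (adjusted p = 0.111 and 0.204) and without contralateral replicates 1 (0.0623 and 0.0862) and 2 (0.13 and 0.0819), and for Gpr139 without contralateral replicate 3 (0.0649). The transcription factor gene Isl1 had 3.62, 1.83 and 4.28 CPM at day 0, 4.80, 5.19 and 6.35 CPM contralaterally and 2.94, 2.12 and 2.94 CPM on the lesion side (-0.28 ± 0.29 against day 0, adjusted p = 0.579). Its lesion libraries lay below the contralateral ones, a difference of -1.04 ± 0.29 with an adjusted p of 0.0528 by edgeR and 0.0107 by DESeq2.

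Microglial genes rose on the lesion side. Of 25 genes of activated microglia 14 rose and all 14 were lesion-specific, of 23 Fc receptor and myeloid signalling genes 15 were, and of 18 homeostatic microglial genes 8 were. The lists share members, and 1.71% of all genes tested were lesion-specific and higher. Ctss, a lysosomal protease gene of microglia, had 82.3, 79.3 and 79.3 CPM at day 0, 68.7, 84.2 and 76.6 CPM contralaterally, and 196, 169 and 177 CPM on the lesion side (1.17 ± 0.08 against day 0, adjusted p = 2.44e-11). Lesion libraries lay above all controls. Tmem119 (0.62 ± 0.09) and Siglech (0.81 ± 0.09), markers of resting microglia, rose as well, and Aif1 had 4.94, 5.95 and 4.2 CPM at day 0, 3.47, 3.63 and 3.33 CPM contralaterally and 9.47, 9.72 and 8.39 CPM on the lesion side. Cst7, a marker of activated microglia, rose from below 0.1 CPM to 1.62, 0.409 and 0.941 CPM, and Trem2 rose from 11.4 to 11.8 CPM to 19.5 to 20.1 CPM. Cell division did not show in the same way: Mki67, the proliferation marker, had 1.02, 1.36 and 0.980 CPM at day 0 and 0.861, 0.968 and 0.979 CPM on the lesion side (adjusted p = 0.526). Of 21 cell cycle genes Mcm6 alone was called against day 0 (0.32 ± 0.09), compared with 16.8% of all genes tested. That call was lost without day 0 replicate 3 (adjusted p = 0.0686) or lesion replicate 2 (0.0592) and with only the 9 libraries compared (0.0578). Of 12 markers of blood monocytes and border macrophages 1 rose, against 9.78% of all genes tested, and their summed level was 44.0 to 52.8 CPM at day 0 and 41.5 to 56.3 CPM on the lesion side. The call, of Plac8, was lost without lesion replicate 1 (adjusted p = 0.223), with limma-voom (0.052) and with only the 9 libraries compared (0.0627).

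Complement genes rose as well. The 3 chains of C1q, which starts the classical pathway, had lesion-side values of 98.1, 98.1 and 95.7 CPM for C1qa against 54.6, 58.5 and 52.9 CPM at day 0 and 43.8, 41.1 and 46.5 CPM contralaterally. C1qa rose by 0.81 ± 0.08, C1qb by 0.86 ± 0.10 and C1qc by 0.67 ± 0.09 against day 0. Of 17 complement genes 5 were lesion-specific and higher, and of 21 lysosomal genes 7 were, against 1.71% of all genes tested.

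Antigen presentation and immune cell genes rose less uniformly. Over all genes tested 9.78% rose and 7.03% fell against day 0, and 1.71% were lesion-specific and higher. Of 15 genes of MHC class I presentation 8 rose and 6 were lesion-specific, led by B2m, its light chain, with 206, 141 and 153 CPM against 86.3, 101 and 92.8 CPM at day 0. H2-D1 rose by 0.48 ± 0.07 and H2-K1 by 0.47 ± 0.11. Of 10 genes of MHC class II and costimulation 3 rose and 1 was lesion-specific, the costimulatory gene Cd86 (1.10 ± 0.18). The calls of the other 2, H2-DMa and H2-DMb1, were lost without day 0 replicates 1 (adjusted p = 0.187 and 0.132) or 3 (0.0954 and 0.103) and without lesion replicates 2 (0.14 and 0.189) or 3 (0.111 and 0.0825). Of 29 interferon-stimulated genes 13 rose against day 0 and 4 were lesion-specific, a number that was 1 without lesion replicate 1 and 2 without any 1 of the contralateral libraries. Irf7 shows the same library: it had 36.2, 9.46 and 8.54 CPM in the lesion libraries and 5.33, 4.64 and 4.98 CPM at day 0. Its call against day 0 was lost without lesion replicate 1 (adjusted p = 0.0601) and with only the 9 libraries compared (0.116). The chemokine genes Ccl2 (2.43 ± 0.44), Ccl7 (3.07 ± 0.36) and Ccl5 (3.30 ± 0.55) rose, and 6 of 21 chemokine and cytokine genes were lesion-specific, with 3 without contralateral replicate 1 or 2. Another 2 of the 21 fell against day 0, among them Cx3cl1 (-0.38 ± 0.06), the ligand gene of the microglial receptor Cx3cr1. Cx3cl1 was not lesion-specific: it fell on both sides and was not called between them. Its contralateral call was lost with a correction for GC content (adjusted p = 0.4), without day 0 replicate 1 (0.0692) and without contralateral replicates 2 (0.0794) or 3 (0.0633). The T cell receptor gene Trbc2 rose from at most 0.181 CPM to 1.11, 0.931 and 0.866 CPM. Summed CPM of the 16 T cell genes was 5.88 to 6.09 at day 0 and 8.34 to 12.6 in the lesion libraries.

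Astrocyte genes divided. Serpina3n, a protease inhibitor of reactive astrocytes, rose from 51.8, 68.8 and 47.5 CPM at day 0 to 156, 190 and 166 CPM, with 61.2, 55.0 and 54.5 CPM contralaterally (1.61 ± 0.14 against day 0). The hyaluronan receptor Cd44 rose by 1.95 ± 0.15. Gfap, the astrocyte filament gene, had 800.3, 1150.0 and 1051.0 CPM at day 0, 664, 606 and 701 CPM contralaterally, and 935, 930 and 862 CPM on the lesion side. It was not called against day 0 (-0.14 ± 0.16, adjusted p = 0.635) nor between the sides (0.47 ± 0.16, adjusted p = 0.129), and it was lower contralaterally than at day 0 (-0.61 ± 0.16, adjusted p = 0.0186). The contralateral call was lost without day 0 replicates 2 (adjusted p = 0.104) or 3 (0.0618), without contralateral replicates 1 (0.0506) or 2 (0.08), and with a correction for GC content (0.0667). Of 27 reactive astrocyte genes 6 were lesion-specific and higher, against 1.71% of all genes tested. This list shares members with the axotomy list, Cd44 among them. Of 14 general astrocyte genes 2 rose against day 0, none fell and none differed between the sides. The shares over all genes tested were 9.78%, 7.03% and 3.88%.

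**Figure D3:**
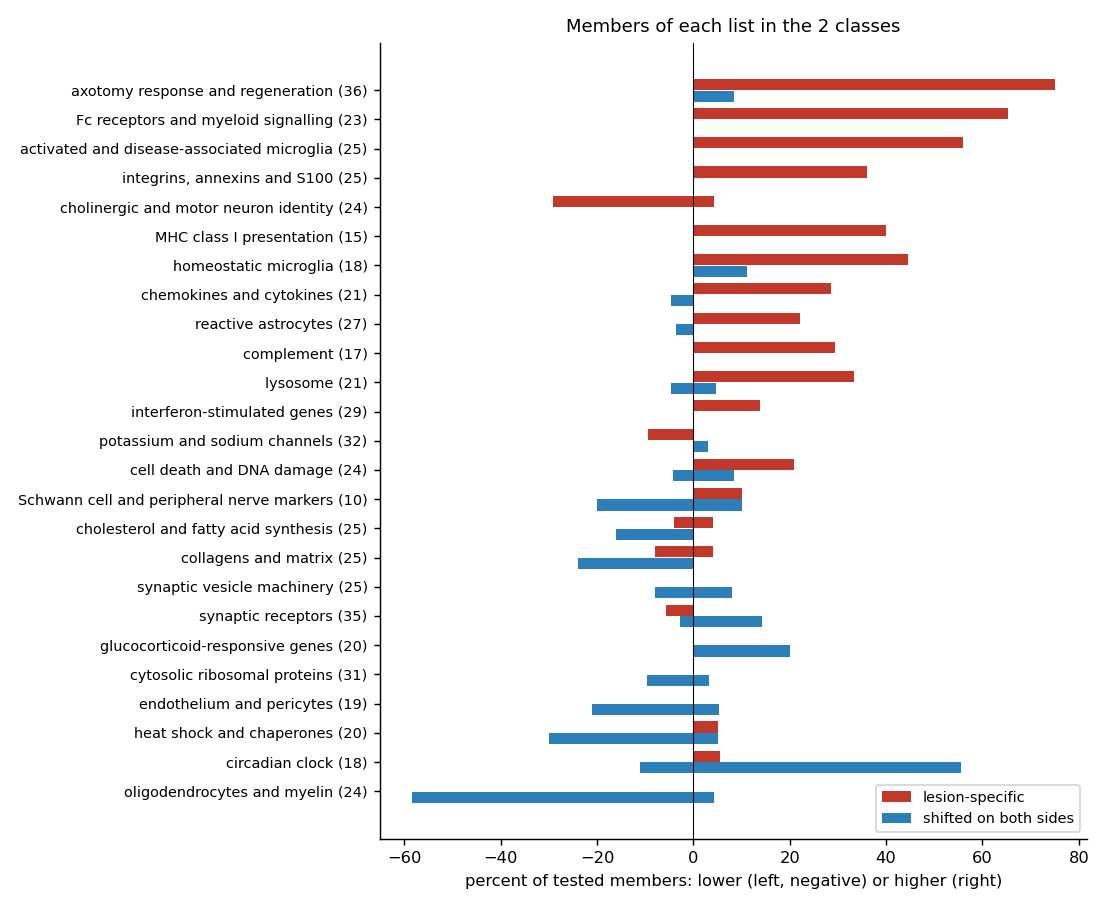
For the lists with at least 3 members in the 2 classes, bars give the percent of tested members (number in brackets) that were lesion-specific or shifted on both sides, higher to the right and lower to the left. The axotomy list reaches 27 of 36 lesion-specific genes and the myelin list 14 of 24 genes that fell on both sides. Over all genes tested 1.71% were lesion-specific and higher, and 2.9% fell on both sides.

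Of the 3749 genes called against day 0, 1909 were in the both-sides class, 484 were lesion-specific and 1356 were in neither class. Circadian clock genes were among those of both sides: of 18 genes 12 rose and 2 fell in the lesion pons, and 10 rose on both sides (6 without day 0 replicate 2). Over all genes tested 9.78% rose and 7.03% fell in the lesion pons, and 5.67% rose on both sides. The median of the clock list was 0.42 contralaterally and 0.40 on the lesion side. Dbp, a clock output gene whose exons overlap Sphk2 on the other strand, had 22.9, 24.5 and 27.9 CPM at day 0, 53.7, 49.5 and 47.6 CPM contralaterally and 51.6, 59.5 and 49.2 CPM on the lesion side. Both sides of day 14 lay above all day 0 libraries and overlapped each other (0.09 ± 0.08 between the sides). Nr1d2 (0.79 ± 0.06) and Ciart (0.87 ± 0.11) rose by similar amounts. The mean of Dbp was 54.9 CPM in the contralateral and 57.7 CPM in the lesion libraries of day 7.

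Some glucocorticoid-responsive genes also rose on both sides. Plin4, a lipid droplet gene whose exons overlap Hdgfl2 on the other strand, had 12.7, 2.69 and 4.02 CPM at day 0, 23.5, 32.7 and 65.1 CPM contralaterally and 22.1, 29.0 and 56.6 CPM on the lesion side, and the same-numbered libraries of both sides lay close together. With only the 9 libraries compared it was not called on the lesion side (adjusted p = 0.0911) or contralaterally (0.0799). Of 20 such genes 4 rose on both sides, against 5.67% of all genes tested. The number was 1 without contralateral replicate 3 or day 0 replicate 3 and 2 without day 0 replicate 2. The time of day of dissection is not given in the sources used here, and its part was not tested.

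Myelin genes fell on both sides. Of 24 oligodendrocyte and myelin genes 15 fell against day 0 in the lesion pons, none differed between the sides, and 14 fell on both sides (9 without lesion replicate 3 or day 0 replicate 3). Among all genes tested 7.03% fell against day 0 in the lesion pons, 3.88% differed between the sides and 2.9% fell on both sides. Mbp, myelin basic protein, had 14342, 15102 and 15250 CPM at day 0, 10228, 12246 and 11094 CPM contralaterally and 10873, 11112 and 11691 CPM on the lesion side (-0.41 ± 0.07). Fa2h, an enzyme of myelin lipids, fell by 0.61 on the log2 scale and Enpp6, which marks newly formed oligodendrocytes, by 0.54. Mean Fa2h was 218 CPM at day 0, 172 CPM contralaterally at day 7 and 150 CPM contralaterally at day 14.

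Some vessel and matrix genes fell too. Cldn5, the tight-junction gene of brain endothelium, had 60.1, 72.0 and 79.2 CPM at day 0, 33.2, 30.2 and 27.6 CPM contralaterally and 33.1, 35.1 and 28.1 CPM on the lesion side (-1.13 ± 0.18). Of 19 endothelial and pericyte genes 9 fell and 1, Slco1a4, rose against day 0 in the lesion pons. None differed between the sides. On both sides 4 fell (2 without contralateral replicates 2 or 3 or day 0 replicate 3) and Slco1a4 rose. Over all genes tested 7.03% fell and 9.78% rose in the lesion pons, and 3.88% differed between the sides. On both sides 2.9% of all genes tested fell and 5.67% rose. Col3a1 fell by 1.67 on the log2 scale, and 6 of 25 collagen and matrix genes fell on both sides. Col4a1, a basement membrane collagen, fell against day 0 (-0.45 ± 0.07) but was higher on the lesion side than contralaterally (0.33 ± 0.07, adjusted p = 0.0094). The latter call was lost without contralateral replicates 2 (adjusted p = 0.057) or 3 (0.0755), and with only the 9 libraries compared (0.0635). Of 13 meningeal fibroblast markers 3 fell against day 0, compared with 7.03% of all genes tested. Among them, the calls of Col1a1 and Slc6a13 were lost without day 0 replicate 3 (adjusted p = 0.135 and 0.0513). The same held without lesion replicate 1 (0.125 and 0.0557). Chaperone genes fell on both sides in 6 of 20 cases, led by Cryab (-0.62 ± 0.07), against 2.9% of all genes tested. Another 3 rose against day 0, compared with 9.78% of all genes tested. Of these 3, Dnaja1 rose on both sides and 1 was lesion-specific. The contralateral call of Dnaja1 was lost with a correction for GC content (adjusted p = 0.297).

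Markers of neighbouring tissue were read beside these falls. The choroid plexus gene Ttr had 77.1, 4.66 and 3.61 CPM at day 0, 112, 49.6 and 878 CPM contralaterally and 85.6, 360 and 16.2 CPM on the lesion side, and none of 11 choroid plexus genes was called. Hba-a1, a haemoglobin gene, had 0.607, 0.422 and 18.4 CPM at day 0 and 1.72, 1.08 and 0.979 CPM on the lesion side. Its uncalled difference of -2.38 ± 1.01 turned into a rise of 1.27 (adjusted p = 0.00685) without day 0 replicate 3. Of 12 cerebellar markers 4 rose against day 0, among them Neurod1 (1.56 ± 0.34), compared with 9.78% of all genes tested. The calls of Cbln1 and Zic1 were lost without day 0 replicates 2 (adjusted p = 0.0713 and 0.0819) or 3 (0.0827 and 0.151). They were also lost without lesion replicates 1 (0.081 and 0.187) or 2 (0.0605 and 0.0708). The share of these tissues in the other changes was not tested.

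Composition of the transcript moved with the shift. Genes that rose on both sides had a median GC content of 41.5% and those that fell 53.9%, against 49.6% over all genes tested, while lesion-specific higher genes had 50.8%. In the tenth of genes with the lowest GC content (median 39.6%) the median log2 difference was 0.35 contralaterally against day 0 and 0.25 on the lesion side. In the tenth with the highest (59.5%) it was -0.15 and -0.09. With a correction for GC content, added after the data were seen, 533 genes rose on both sides in place of 1263, and 407 and 92 genes were lesion-specific, with 419 shared with the uncorrected classes. With it, 10 clock genes rose and 13 myelin genes fell on both sides.

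**Figure D4:**
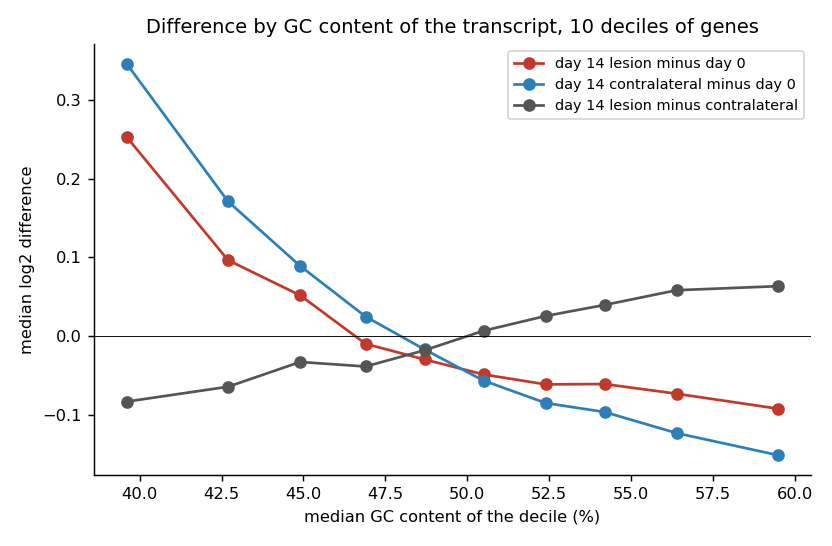
Median log2 difference over the genes of each GC decile (horizontal, median GC content in percent) for 3 contrasts. Contralateral pons against day 0 runs from 0.346 at 39.6% GC to -0.151 at 59.5%, and lesion against contralateral pons runs the other way from -0.083 to 0.0635.

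Of 13 mitochondrially encoded transcripts 2 rose on both sides and 1 fell on the lesion side against day 0. The shares over all genes tested were 5.67% and 7.03%. One of the 2 was mt-Nd1, whose lesion-side call was lost without day 0 replicates 1 (adjusted p = 0.162) or 2 (0.124). It was also lost without lesion replicates 1 (0.178) or 3 (0.169) and with a correction for GC content (0.421). Their summed level was 26020 to 31310 CPM at day 0, 40320 to 42450 CPM contralaterally and 23180 to 39850 CPM on the lesion side, so lesion libraries overlapped day 0. The mitochondrial tRNA gene mt-Tc had 3.92, 2.32 and 5.57 CPM at day 0, 26.9, 31.5 and 26.1 CPM contralaterally and 24.7, 15.7 and 24.2 CPM on the lesion side. Lesion replicate 2 was the lowest of the 6 day 14 libraries. Of the 29 nuclear respiratory chain genes 13 fell contralaterally, 1 rose and none fell on the lesion side against day 0, and none was called between the sides. Contralaterally 6.73% of all genes tested fell.

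A set of 370 genes differed between the sides of day 14 without being called against day 0, with 190 higher and 180 lower on the lesion side. This count ran from 91 to 1075 when each library was left out, with 1075, 98 and 238 without lesion replicates 1, 2 and 3, 169, 91 and 134 without contralateral replicates 1, 2 and 3, and 640 and 563 without day 0 replicates 1 and 2. Among its higher genes the median difference was 0.36 between the sides and -0.27 between contralateral pons and day 0. Cx3cr1, the gene in which the reporter sits, had 26.8, 22.2 and 25.1 CPM at day 0, 21.1, 21.5 and 15.3 CPM contralaterally, and 34.7, 36.8 and 25.9 CPM on the lesion side. It differed between the sides (0.75 ± 0.15) and not against day 0 (0.40 ± 0.14, adjusted p = 0.0575), and was called there without lesion replicate 3 or contralateral replicate 3, and by DESeq2 (adjusted p = 0.0259). Mvd, an enzyme of cholesterol synthesis, had 41.5, 46.1 and 39.4 CPM at day 0, 29.0, 25.6 and 29.6 CPM contralaterally and 35.2, 46.4 and 43.2 CPM on the lesion side (0.57 ± 0.09 between the sides). Cx3cr1 and Mvd were chosen after their values were seen.

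**Figure D5:**
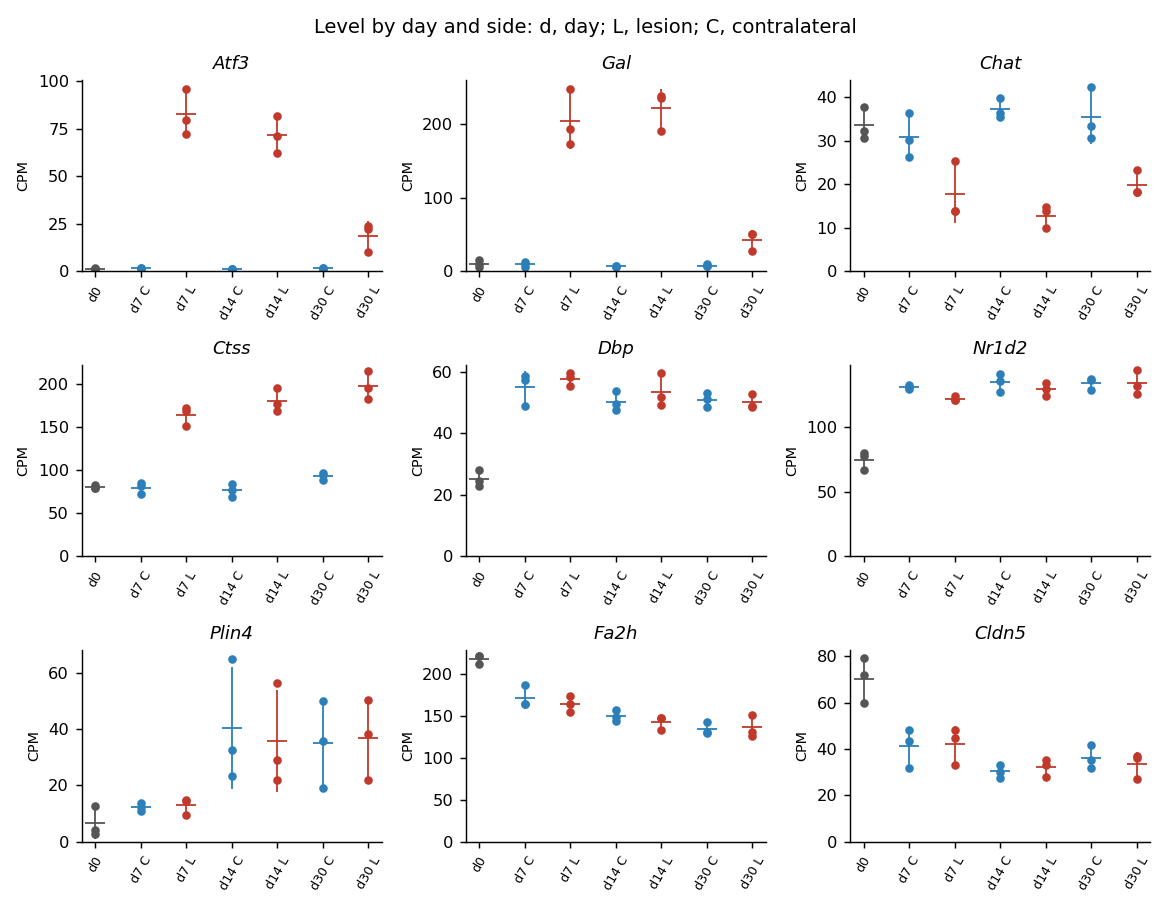
CPM by day and side for 9 genes, 1 point per library with the mean and SD of 3 libraries. Atf3, Gal, Chat and Ctss differ between lesion and contralateral libraries, while Dbp, Nr1d2, Plin4, Fa2h and Cldn5 have both sides on the same side of day 0.

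The same genes at the other days place day 14 in the series. Mean Atf3 was 82.6 ± 12.2 CPM (SD, n = 3) on the lesion side at day 7, 71.8 ± 9.76 CPM at day 14 and 18.8 ± 7.58 CPM at day 30, and contralateral means stayed between 1.25 and 1.70 CPM. Ctss had 165, 181 and 198 CPM on the lesion side at days 7, 14 and 30. These differences between days were not tested.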

How the data were processed

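Total RNA of ventral pons (300 ng per library) was made into TruSeq stranded mRNA libraries, per the labels' protocols. Bases were called with CASAVA 1.8.2 and reads aligned to GRCm38.p4 with Subread, per the submitters' processing notes. The authors counted reads per gene with featureCounts, and the deposited table holds raw counts for 45664 genes. The deposited second matrix holds log2 values and served as an alternative.

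Genes with a summed count of at least 30 over the 21 libraries (22294 of 32815 with a count) were fitted with edgeR 4.0.16 in R 4.3.3 (TMM factors; every group had its own coefficient in a robust quasi-likelihood fit over the 21 libraries), two-sided, with Benjamini-Hochberg adjustment over all genes and calls at 0.05. With 3 libraries per group, 0.1 is the smallest p of an exact permutation test. The members and the 37 lists were chosen with earlier results of these data known. Named genes were the 15 lesion-specific genes per direction with the largest change, 5 per direction shifted on both sides and 3 between sides only (at least 1 CPM on average; in the first 2 groups with libraries not overlapping day 0), 2 to 4 members per list by adjusted p, and fixed markers; Cx3cr1, Mvd and Irf7 were added after their values were seen, and predicted genes were not named. Not all of the genes so selected are described, and some results are not reported here. Alternatives used DESeq2 1.42.0, limma 3.58.1, other scalings and filters, a replicate block and left-out libraries. The fit was tested on simulated data. Libraries compared held 19221145 counts or more.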

Additional observations from a re-analysis of the deposited data

How the results depend on the processing

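DESeq2, limma-voom, limma on the deposited log2 values, DESeq2-style size factors, library totals alone and filterByExpr kept all 7 counts of genes within 1.5 times. With every gene that had a count, 161 lesion-specific genes were lower and 612 were called between the sides only. With only the 9 libraries compared, 889 genes fell against day 0, 35 lesion-specific genes were lower, 317 fell on both sides and 86 were called between the sides only. A log2 change of at least 1.7 left 181 genes higher and 43 lower against day 0, 86 and 3 lesion-specific, 30 and 16 on both sides, and 8 between the sides only. Of the 2181 higher and 1568 lower genes called against day 0, 661 and 400 had lesion libraries outside all 6 control libraries. The correction for GC content, added after the data were seen, gave 533 genes higher on both sides. Except where the alternative's construction explains the number (fewer libraries or genes), the cause was not tested.

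Leaving out each library gave 1768 to 2224 higher and 1134 to 1522 lower genes against day 0, 292 to 480 and 27 to 387 lesion-specific genes, 950 to 1364 and 393 to 704 on both sides, and 91 to 1075 between the sides only. Without lesion replicate 2, the library with the low mitochondrial share, 286 of the 382 higher and 23 of the 102 lower lesion-specific genes kept their class. Without day 0 replicate 3, Hba-a1 turned from -2.38 to 1.27 in lesion and from -2.42 to 1.232 in contralateral pons against day 0, and without day 0 replicate 2 these were -2.94 and -2.975. The labels give the sides the same replicate numbers, and same-numbered day 14 libraries correlated at 0.269, -0.00345 and 0.166. The numbers were not taken as pairs here. At day 7 the correlations between the sides were 0.273, 0.239 and 0.167, and at day 30 they were 0.21, 0.215 and 0.194. Same-numbered day 14 lesion and day 0 libraries, from operated and unoperated mice, correlated at 0.241, 0.228 and -0.0321. Such correlations therefore cannot tell whether equal numbers mark pairs. A replicate block gave 158 lower lesion-specific genes, and 2318 higher and 1821 lower genes against day 0.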
